A study of Mus musculus with 6 samples.

Results

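Calcineurin, the nuclear factors of activated T cells (NFAT) and the calmodulin-dependent kinases were followed through 10 genes in cultures of differentiating muscle cells. These were Ppp3ca and Ppp3cb, which encode catalytic subunits of calcineurin, the calcineurin regulators Rcan1 and Rcan2, the transcription factors Nfatc1, Nfatc2, Nfatc3 and Nfatc4, and the CaM kinase II subunits Camk2a and Camk2g. All probe sets whose annotation names 1 of these symbols and no other gene were taken, which gave 37 of the 45037 probe sets tested. The cells were C2C12, an established mouse myoblast line that fuses into multinucleated myotubes when serum is withdrawn. Differentiated cultures had been kept for 6 days in 2% horse serum, and proliferating cultures grew in 20% serum. Each group had 3 RNA samples and 1 array per sample. According to the methods, RNA of 3 plates was pooled, and 3 pools from cultures begun on successive days made up each sample. Differences among arrays of a group are therefore differences among combined pools. No genotype or drug separates the groups, but the change of serum and the time in culture go together with differentiation and cannot be told apart from it. Not every nucleus in a differentiated culture belongs to a myotube, and in such bulk RNA fewer cells of a type cannot be told apart from less RNA per cell.

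The labels were checked against marker transcripts. All 6 markers of differentiated skeletal muscle were higher in differentiated cells, where their summed signal lay between 51432.8 and 54459.8, against 627.4 to 766.9 in proliferating cells. The 3 cell cycle markers with a probe set were all lower, with sums of 884.9 to 904.1 in differentiated cells and 9108.3 to 9442.1 in proliferating cells. Of 4 genes listed as myoblast or satellite cell markers, Des rose, and the paper counts desmin among the markers of terminal differentiation. Myod1 and Myf5 did not pass the test. Pax7 was at background, that is, no brighter than bacterial control probe sets, on all arrays. The median signal of an array lay between 72.3 and 81.4 in differentiated cells and between 68.0 and 73.0 in proliferating cells, and arrays of a group correlated with an r of 0.937 to 0.942 over all probe sets, which are not independent replicates.

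Calcineurin is a phosphatase that calcium and calmodulin switch on. It removes phosphates from NFAT proteins, which then move into the nucleus, while kinases such as GSK3 and the DYRK family put the phosphates back and return NFAT to the cytoplasm. RCAN proteins bind calcineurin and can hold it back, and CaM kinase II is a calcium-dependent kinase that passes calcium signals to many targets, among them the histone deacetylases that restrain MEF2 factors. In skeletal muscle this pathway is known for its place in myoblast fusion, fibre growth and the slow-fibre programme. All of these proteins are regulated by calcium and phosphorylation, which the arrays do not measure, so the values here are transcript levels alone.

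Rcan1 and Rcan2 were both up-regulated on the arrays, and Rcan1 is a known NFAT target with clustered NFAT sites in an internal promoter, so promoters of these genes are shown. The 250 bases before annotated start sites were taken from RefSeq (build GRCm38.p6). Member promoters on 1 chromosome were left out, and 11 promoters of 6 of the 10 members were examined. Promoters of Ppp3ca, Nfatc1, Camk2a and Camk2g were not examined. Both strands were searched for GGAAA, the core that NFAT proteins bind. The capitals below mark that core or its complement TTTCC, and each sequence runs 5′ to 3′ on the strand of its gene.
Rcan1, chr16:92400079-92400328, minus strand: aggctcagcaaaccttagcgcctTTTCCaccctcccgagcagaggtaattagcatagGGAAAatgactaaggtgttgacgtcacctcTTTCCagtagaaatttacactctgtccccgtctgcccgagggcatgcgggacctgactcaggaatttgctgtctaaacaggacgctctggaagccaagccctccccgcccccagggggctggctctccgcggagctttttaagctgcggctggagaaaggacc
Rcan1, chr16:92466170-92466419, minus strand: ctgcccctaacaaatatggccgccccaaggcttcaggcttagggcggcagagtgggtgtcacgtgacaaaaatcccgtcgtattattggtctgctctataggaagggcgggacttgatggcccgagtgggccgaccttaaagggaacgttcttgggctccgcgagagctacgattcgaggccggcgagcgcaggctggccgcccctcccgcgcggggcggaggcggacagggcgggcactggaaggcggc
Rcan2, chr17:43801102-43801351, plus strand: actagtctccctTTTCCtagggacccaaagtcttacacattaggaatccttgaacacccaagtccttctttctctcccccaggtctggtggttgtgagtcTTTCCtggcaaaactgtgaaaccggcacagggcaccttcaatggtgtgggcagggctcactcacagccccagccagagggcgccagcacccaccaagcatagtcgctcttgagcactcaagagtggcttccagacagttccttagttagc
The Rcan1 start at the lower coordinate, which is the downstream one on the minus strand, had 3 copies of the core, placed between bases -227 and -163 from the start, and the upstream Rcan1 promoter had 0. The Rcan2 promoter shown had 2, at -238 and -150, and the other 2 promoters of Rcan2 had 0. Members that were not called higher by their brightest probe set also held the core, with 3 copies in the promoter of Ppp3cb, in that of Nfatc4 and in 1 of 2 promoters of Nfatc2, whose other promoter had 1, and 1 and 0 copies in the promoters of Nfatc3. Of all 32851 promoters of this length, 55.6% held at least 1 copy, 21.4% at least 2 and 6.39% at least 3. Such a match is a description and not a binding site, and the annotation does not say from which start site the measured transcripts came.

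Signals are linear MAS 5.0 values. The brightest Bacillus subtilis control probe set of each array, between 51.9 and 87.0, served as the limit under which a signal was read as background. Changes are differences of log2(signal + 15), differentiated minus proliferating, tested with limma over all 45037 probe sets, and a probe set was called at an adjusted p under 0.05. Of the 37 member probe sets, 8 were higher in differentiated cells and 1 was lower, where 6.14% of all probe sets were called higher and 6.43% lower (12.6% in either direction). All 9 changed by at least 1.5-fold, a call that 9.68% of all probe sets received. The other 28 did not pass, and 14 of the 37 had an unadjusted p under 0.05 (22.8% of all probe sets). The groups did not overlap for 12 probe sets that were higher in differentiated cells and 3 that were lower, where these shares were 14.9% and 12.3% of all probe sets. On every array of at least 1 group, 22 of the 37 were above background, and 5 were at background on all 6 arrays. With each gene represented by its brightest probe set, 4 of 10 genes were called higher (Ppp3ca, Rcan1, Rcan2 and Camk2a) and 0 lower, where 8.67% of 18193 genes were called higher and 9.05% lower (17.7% in either direction). An unadjusted p under 0.05 was found for 6 of the 10, and for 29.4% of all genes. The median change of the 10 was 0.46 on the log2 scale, and that of all genes was 0.06. Every differentiated array was above every proliferating one for 7 of the 10 genes (18.0% of all genes).

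**Figure D1:**
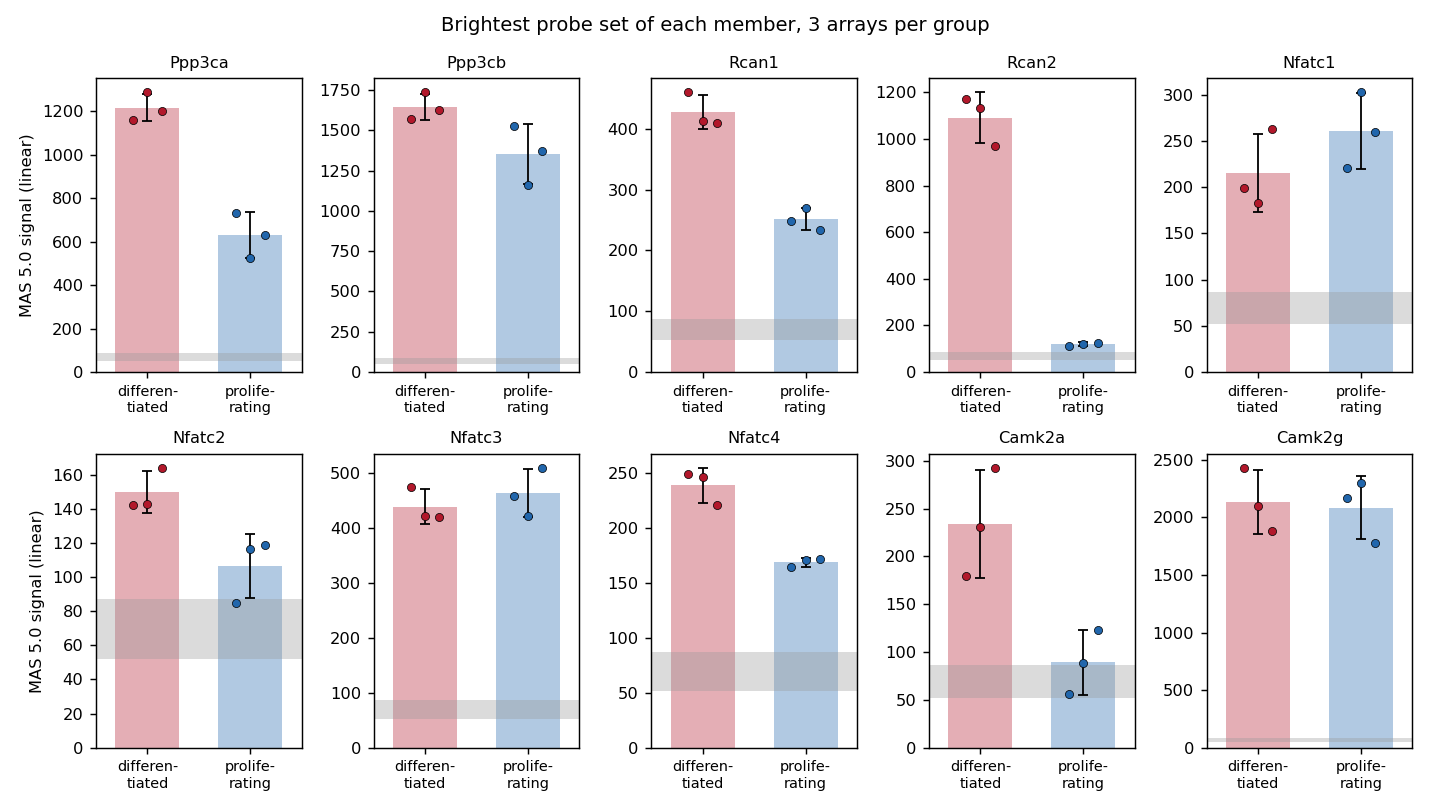
MAS 5.0 signal (linear axis from 0) of the brightest probe set of each of the 10 genes, with points for single arrays, bars for the mean and error bars for the SD of 3 arrays, and differentiated cells on the left of each panel. The grey band spans the background limits of the arrays, 51.9 to 87.0. Rcan2 stands out, with 968.6 to 1171.7 in differentiated cells and 112.4 to 125.8 in proliferating cells. The points of Nfatc1, Nfatc3 and Camk2g overlap between the groups.

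Among the catalytic subunits of calcineurin, Ppp3ca was up-regulated at each of its 3 probe sets. Ppp3ca encodes the alpha isoform of the phosphatase subunit. Its brightest probe set, 1426401_at, had signals of 1160.6, 1286.5 and 1203.1 in differentiated cells, against 733.2, 523.1 and 630.7 in proliferating cells. All differentiated arrays were therefore above all proliferating ones, with means of 1216.7 ± 64.0 in differentiated cells and 629 ± 105 in proliferating cells (SD, n = 3 each). The log2 change was 0.95 (standard error 0.13, adjusted p = 0.0002, 95% interval 0.67 to 1.22). Probe set 1452056_s_at gave 842.4, 903.4 and 814.3 in differentiated cells and 483.4, 436.0 and 491.8 in proliferating cells, a change of 0.84 (standard error 0.11, adjusted p = 0.0002). For 1438478_a_at the signals were 662.9, 667.1 and 603.9 in differentiated cells, against 424.1, 425.6 and 417.3 in proliferating cells, a change of 0.59 (standard error 0.12, adjusted p = 0.0037). The size thus ran from 0.59 to 0.95 across probe sets of 1 gene. In the fit with eBayes without a variance trend, 1438478_a_at was not called (adjusted p = 0.084). Leaving out any single array kept all 3 calls.

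The probe sets of Ppp3cb, the gene of the beta catalytic subunit, pointed in different directions, and 1 of the 5 passed the test. The brightest, 1428473_at, had 1572.4, 1734.7 and 1623.7 in differentiated cells and 1528.3, 1159.8 and 1371.4 in proliferating cells. The groups did not overlap, yet the change of 0.29 did not pass (standard error 0.11, adjusted p = 0.14, 95% interval 0.04 to 0.53). Probe set 1427468_at, with 554.1, 664.8 and 680.5 in differentiated cells and 482.0, 373.6 and 557.6 in proliferating cells, overlapped between the groups and also missed the threshold (0.43, standard error 0.15, adjusted p = 0.10). In contrast, 1433835_at was lower in differentiated cells, with signals of 494.8, 328.6 and 442.5, against 821.9, 508.8 and 790.2 in proliferating cells. This was the only lower call among the 37 probe sets, at -0.71 (standard error 0.19, adjusted p = 0.028). It was lost without differentiated replicate 2 (adjusted p = 0.12) or 3 (0.056), without proliferating replicate 1 (0.13) or 3 (0.12), and with eBayes without trend (0.21). The remaining Ppp3cb probe sets, 1428474_at and 1446149_at, were dim, with signals of at most 81.2. The annotation does not say which Ppp3cb transcripts each probe set detects, so the direction for this gene depends on the probe set read.

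**Figure D2:**
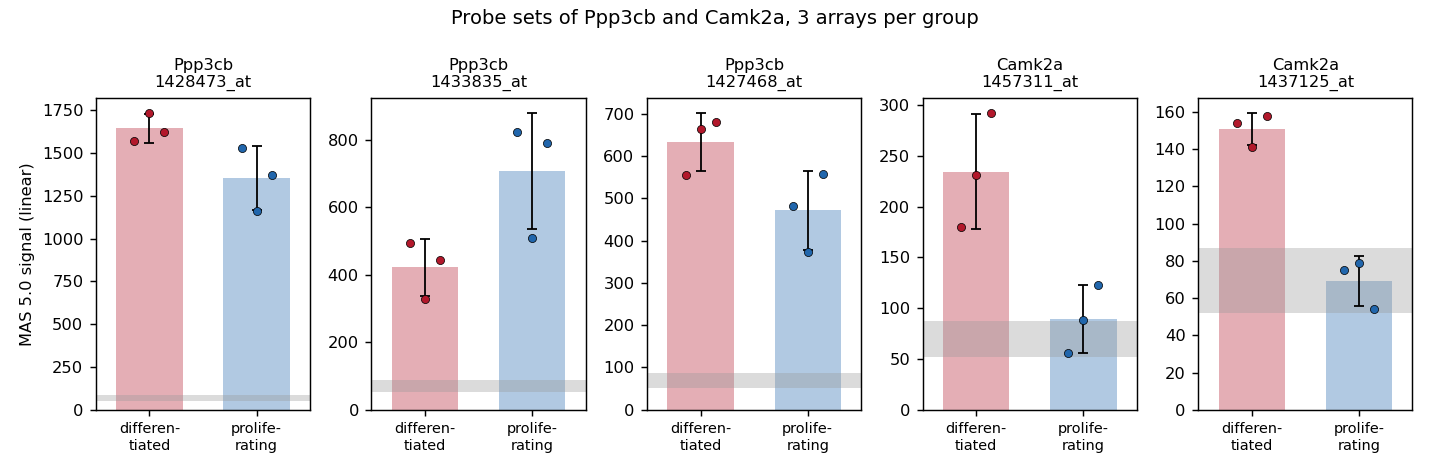
MAS 5.0 signal (linear axis from 0) of the 3 brighter probe sets of Ppp3cb and the 2 brighter ones of Camk2a, with points for single arrays, bars for the mean, error bars for the SD of 3 arrays, differentiated cells on the left and the background limits in grey. For Ppp3cb, 1433835_at is lower in differentiated cells (422 ± 85.0, against 707 ± 172 in proliferating cells), while the bars of 1428473_at and 1427468_at are higher there. Both Camk2a probe sets are higher in differentiated cells, and part of their proliferating points lie within the grey band.

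Both regulators of calcineurin were up-regulated. Rcan2, which encodes a calcineurin inhibitor known from brain, heart and skeletal muscle, changed more than any other member. Probe set 1421425_a_at had signals of 1171.7, 1134.1 and 968.6 in differentiated cells, against 112.4, 121.7 and 125.8 in proliferating cells. The lowest differentiated array was far above the highest proliferating one, with means of 1091.5 ± 108 in differentiated cells and 120 ± 6.87 in proliferating cells (SD, n = 3 each). Rcan2 was thus up-regulated with a log2 change of 3.03 (standard error 0.14, adjusted p = 1.8e-08, 95% interval 2.73 to 3.34), and the ratio of the mean signals was 9.1. Without any single array the change remained between 2.98 and 3.11. The second Rcan2 probe set, 1450243_a_at, had 214.3, 163.7 and 140.6 in differentiated cells, against 81.8, 6.7 and 8.0 in proliferating cells. All 3 proliferating values were at background, although 81.8 was just under the limit of 87.0 on that array, so only a bound can be given, an at least 2.57-fold higher signal in differentiated cells (adjusted p = 0.014). This call was lost without differentiated replicate 1 or 2 (adjusted p = 0.082 and 0.054), without proliferating replicate 3 (0.054) and with eBayes without trend (0.085).

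Rcan1, whose protein can inhibit calcineurin, was also up-regulated, by a smaller amount. At 1416600_a_at the signals were 459.9, 413.0 and 409.6 in differentiated cells, against 249.2, 270.5 and 234.0 in proliferating cells. The mean was 428 ± 28.1 in differentiated cells and 251 ± 18.3 in proliferating cells (SD, n = 3 each), with no overlap. The log2 change was 0.73 (standard error 0.14, adjusted p = 0.0041, 95% interval 0.42 to 1.05), and the call was lost only with eBayes without trend (adjusted p = 0.053). The dimmer 1416601_a_at had 238.4, 255.4 and 277.7 in differentiated cells and 130.1, 136.5 and 180.8 in proliferating cells. Its change was of like size, 0.74 (standard error 0.20, adjusted p = 0.031). Leaving out any 1 of 5 of the 6 arrays moved this adjusted p to between 0.073 and 0.11, and the exception was proliferating replicate 3. With eBayes without trend it was 0.084. Each Rcan1 and Rcan2 probe set had groups that do not overlap. Neither value says which of the promoters printed above was in use.

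**Figure D3:**
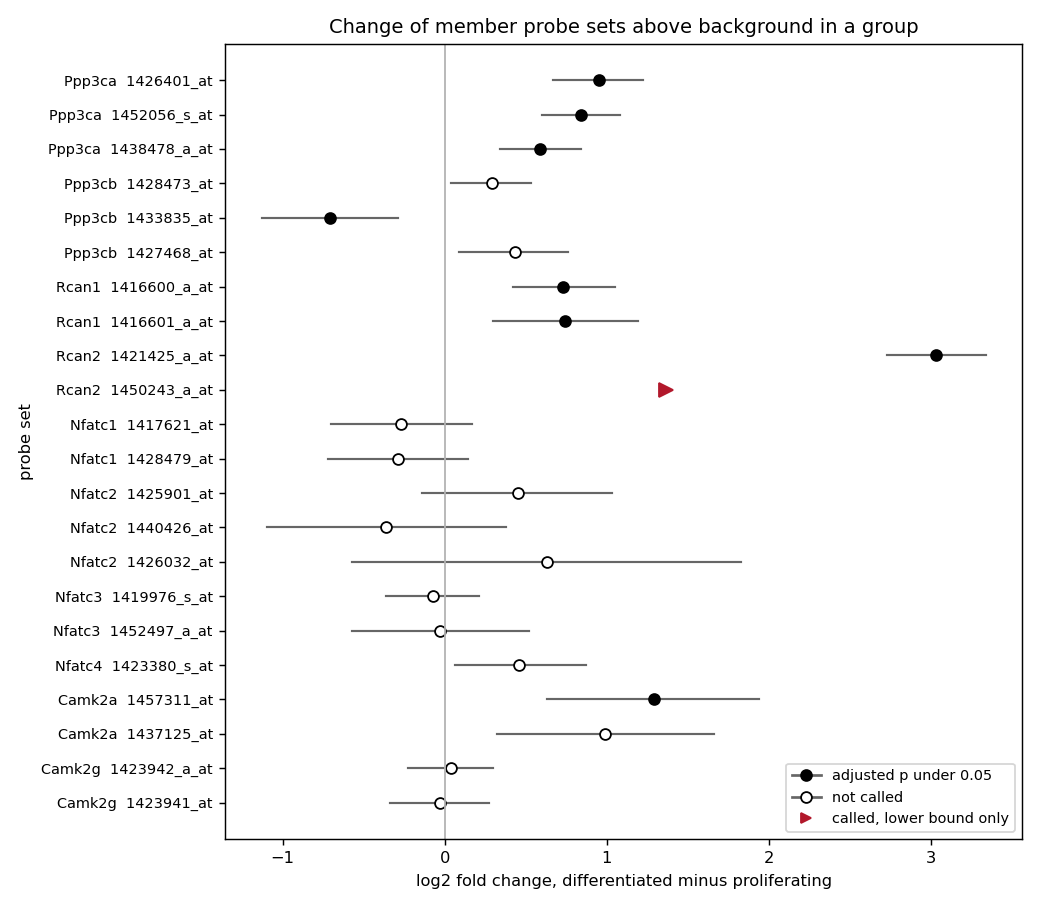
Log2 change, differentiated minus proliferating, of the 22 member probe sets that were above background on every array of at least 1 group. Points are limma estimates, lines their 95% intervals, filled points have an adjusted p under 0.05, and the triangle is a lower bound. The Rcan2 probe set 1421425_a_at lies at 3.03, Ppp3cb 1433835_at is the only filled point left of 0, and no Nfatc probe set is filled.

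Of the 17 probe sets of the NFAT factors, 8 were above background on every array of at least 1 group. None of the 17 was called by limma in either direction, where 12.6% of all probe sets were. An unadjusted p under 0.05 was reached by 2 of them with limma (22.8% of all probe sets) and by 3 with the regularized test (24.2% of all probe sets), and 0 were called after adjustment in any alternative fit. Nfatc4, a family member expressed in muscle as well as in neurons and heart, came closest among those above background. Its probe set 1423380_s_at had 248.8, 245.9 and 220.4 in differentiated cells, against 163.9, 170.1 and 171.4 in proliferating cells. The groups were well apart, and the change was 0.46 (standard error 0.19, adjusted p = 0.15, 95% interval 0.06 to 0.87). Its other 3 probe sets were dim, and 2 of them, 1423379_at and 1432821_at, were at background on every array.

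Nfatc2, which is known to act in the later growth of myotubes after their formation, was dim throughout. Its brightest probe set, 1425901_at, had 142.5, 142.6 and 163.9 in differentiated cells, against 84.7, 116.2 and 118.7 in proliferating cells, where 2 of 3 arrays were above background. These groups did not overlap, but the change of 0.45 had a wide interval (standard error 0.27, adjusted p = 0.38, 95% interval -0.14 to 1.03). Probe set 1440426_at pointed the other way, with 83.7, 106.3 and 59.0 in differentiated cells and 111.2, 121.0 and 94.7 in proliferating cells (-0.36, standard error 0.34, adjusted p = 0.62). At 1426032_at, signals of 60.0, 76.5 and 104.2 in differentiated cells overlapped with 99.9, 57.7 and 11.4 in proliferating cells (0.63, standard error 0.55, adjusted p = 0.58). The remaining 3 Nfatc2 probe sets were at background on at least 1 array of each group. The mean over all Nfatc2 probe sets was -0.12, opposite in sign to the brightest, so these arrays give no direction for Nfatc2.

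Nfatc1, known for its nuclear entry in slow fibres and for activating its own gene in lymphocytes and osteoclasts, did not pass the test at any of its 5 probe sets. Probe set 1417621_at had 198.8, 183.0 and 263.1 in differentiated cells and 220.3, 302.4 and 259.9 in proliferating cells (-0.27, standard error 0.20, adjusted p = 0.51, 95% interval -0.70 to 0.17). Probe set 1428479_at had 174.6, 198.2 and 149.5 in differentiated cells, against 217.8, 210.3 and 218.3 in proliferating cells. For this probe set the groups did not overlap, but the change of -0.29 did not pass (standard error 0.20, adjusted p = 0.45). The other 3 probe sets of Nfatc1 were dim, and 1425761_a_at was at background on all 6 arrays.

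Nfatc3, which has been placed at the myoblast stage of muscle cultures, had overlapping groups at both probe sets. At 1419976_s_at the signals were 475.2, 422.6 and 419.5 in differentiated cells, against 458.6, 422.5 and 509.1 in proliferating cells, a change of -0.07 (standard error 0.13, adjusted p = 0.82). Its 95% interval, -0.36 to 0.21, leaves room for a change of modest size in either direction. At 1452497_a_at the signals were 143.9, 178.8 and 171.3 in differentiated cells and 215.0, 118.2 and 182.4 in proliferating cells (-0.03, standard error 0.25, adjusted p = 0.97, 95% interval -0.57 to 0.52). The samples are cultures of an established myoblast line. In them the summed signal of 4 macrophage markers was 583.3 to 603.2 in differentiated cells, against 444.2 to 475.0 in proliferating cells. Adgre1 was called higher (0.87, adjusted p = 0.049), and the other 3 were not called. Their changes were 0.39 for Csf1r (adjusted p = 0.33), 0.10 for Cd68 (0.90) and -0.63 for Ptprc (0.65). Ptprc was above background on 0 differentiated arrays and 1 proliferating array. A link between these markers and the NFAT values was not tested.

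Of the CaM kinase II subunits, Camk2a passed the test and Camk2g did not. Camk2a encodes the alpha subunit, best known from neurons, and the same gene is known to give rise in skeletal muscle to an anchoring protein without kinase activity. Its brightest probe set, 1457311_at, had 179.6, 231.1 and 292.3 in differentiated cells, against 55.9, 88.5 and 122.9 in proliferating cells. All differentiated arrays were above all proliferating ones, of which 2 of 3 were above background, with means of 234 ± 56.4 in differentiated cells and 89.1 ± 33.5 in proliferating cells (SD, n = 3 each). The change was 1.29 (standard error 0.30, adjusted p = 0.012, 95% interval 0.63 to 1.94). It missed the threshold without differentiated replicate 2 (1.28, adjusted p = 0.052) or 3 (1.12, adjusted p = 0.078) and with eBayes without trend (adjusted p = 0.071). Probe set 1437125_at had 153.9, 141.3 and 157.8 in differentiated cells, against 74.9, 79.0 and 53.9 in proliferating cells, also without overlap. Only 1 of these 3 proliferating arrays was above background, and the size of the change depends on the pseudocount, with 1.13 at a pseudocount of 1 and 0.76 at 50. Its change of 0.99 was just outside the threshold (standard error 0.31, adjusted p = 0.055) and passed in 4 alternative fits, the regularized test among them, with adjusted p between 0.022 and 0.043. The other 4 Camk2a probe sets were dim, and with all 6 averaged the change was 0.48 (adjusted p = 0.38). Which Camk2a transcript each probe set detects is not stated in the annotation. Of 5 neuron markers, Snap25 and Gad1 were at background on all arrays, 0 were called higher, and the summed signal was 294.3 to 416.9 in differentiated cells, against 1589.3 to 1603.5 in proliferating cells, where Nefl made up most of it.

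Camk2g, the gene of the broadly expressed gamma subunit, had overlapping groups. At 1423942_a_at the signals were 2426.6, 2097.7 and 1876.6 in differentiated cells, against 2168.3, 2301.7 and 1777.7 in proliferating cells, a change of 0.04 (standard error 0.12, adjusted p = 0.92, 95% interval -0.23 to 0.30). At 1423941_at they were 1492.2, 1783.6 and 1275.6 in differentiated cells and 1600.6, 1293.6 and 1764.1 in proliferating cells (-0.03, standard error 0.14, adjusted p = 0.93, 95% interval -0.34 to 0.27). Both intervals leave out a change as large as that estimated for the brighter Camk2a probe set.

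Whether related members changed unequally was tested in 9 pairs on the within-array difference of their brightest probe sets. With 3 arrays against 3 the exact two-sided permutation test cannot go below 0.1, and 7 pairs reached this smallest value (0.129 after adjustment over the 9 pairs), so sizes and errors are the result here. The change of Ppp3ca exceeded that of Ppp3cb by 0.66 (standard error 0.02). This error does not cover the choice of probe set, and the probe sets of Ppp3cb pointed in different directions. The change of Rcan1 minus that of Rcan2 was -2.30 (standard error 0.10), and that of Camk2a minus Camk2g was 1.25 (standard error 0.47). With all probe sets of a gene averaged, the difference was 0.54 for Ppp3ca minus Ppp3cb and -1.95 for Rcan1 minus Rcan2. For Camk2a minus Camk2g it was 0.48. Among the NFAT factors, the change of Nfatc4 was above that of Nfatc1 and of Nfatc3, with differences of -0.73 for Nfatc1 minus Nfatc4 (standard error 0.23) and -0.54 for Nfatc3 minus Nfatc4 (standard error 0.09). With probe sets averaged, Nfatc1 minus Nfatc4 was -0.55 (exact p = 0.2) and Nfatc3 minus Nfatc4 was -0.25 (exact p = 0.4). Nfatc1 minus Nfatc2 was -0.72 (standard error 0.12) and -0.23 with probe sets averaged (exact p = 0.4). Nfatc2 minus Nfatc3 was 0.52 (standard error 0.18) but -0.07 with probe sets averaged. The 2 pairs whose groups overlapped were Nfatc1 with Nfatc3 (exact p = 0.5) and Nfatc2 with Nfatc4 (exact p = 1.0).

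The genes whose brightest probe sets followed Rcan2 most closely over the 6 arrays were Herpud1, an endoplasmic reticulum stress protein (Pearson's r of 0.9997), Col6a1, a collagen VI chain (0.9995), and Fitm2, a protein of lipid droplet formation (0.9994). Herpud1 averaged 1773.2 ± 68.1 in differentiated cells and 712 ± 26.1 in proliferating cells, and Col6a1 averaged 3547.3 ± 358 in differentiated cells and 469 ± 40.7 in proliferating cells (SD, n = 3 each). The 6 arrays fall into the 2 groups, so that r mainly compares 2 clusters, and 222 genes had one above 0.99, so the likeness is a description of these arrays.

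The other genes of the pathway were described through 5 lists, with 57 of 65 listed genes having a probe set of their own. The remaining listed genes were not analysed here. Of the 57, each read from its brightest probe set, 14 were higher and 3 lower in differentiated cells, and 40 did not pass. Their median change was 0.11, where 8.67% of all genes were called higher, 9.05% lower and the median was 0.06. With all probe sets of a gene averaged, 10 were higher and 4 lower.

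Around calcineurin itself, 10 genes of subunits, inhibitors and anchors had a median change of -0.02, with 1 higher and 1 lower. Myoz2, a protein of the muscle Z-disc that binds calcineurin, had 1175.8, 1051.9 and 1016.1 in differentiated cells, against 3.1, 5.7 and 33.3 in proliferating cells. All proliferating arrays were at background, and the signal was at least 16.3-fold higher in differentiated cells (adjusted p = 2.9e-07). Fkbp1a, the immunophilin through which the drug FK506 blocks calcineurin, was lower, with means of 4214.5 ± 210 in differentiated cells and 6785.5 ± 686 in proliferating cells (SD, n = 3 each). Its change was -0.68 (standard error 0.10, adjusted p = 0.00054), which eBayes without trend did not call (adjusted p = 0.073), and the suffix of its probe set, 1438958_x_at, marks probes that may also match other transcripts. Ppp3r2, Akap5 and Myoz3 were at background on all arrays. Ppp3r1, which encodes the regulatory subunit that pairs with the catalytic ones, did not pass (1969.7 ± 103 in differentiated cells and 2078.8 ± 278 in proliferating cells, -0.07, standard error 0.11, adjusted p = 0.78), and it is named here after its values were seen.

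Of 12 kinases, export factors and partners of NFAT, 2 were higher and 1 lower, with a median of 0.08. Xpo1, the exportin that carries NFAT and many other proteins out of the nucleus, had 1126.7, 1188.5 and 1000.1 in differentiated cells, against 1819.2, 1543.5 and 2052.3 in proliferating cells. This was a change of -0.69 (standard error 0.12, adjusted p = 0.0014), which eBayes without trend did not call (adjusted p = 0.093). Dyrk1a and Dyrk2, kinases that can phosphorylate NFAT, passed narrowly, at 0.46 (standard error 0.14, adjusted p = 0.045) and 0.36 (standard error 0.11, adjusted p = 0.049). Each of these calls was lost with most single arrays left out and with other settings, and neither reached 1.5-fold.

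Among 14 CaM kinases and their regulators 2 were higher and 0 lower, with a median of 0.11. Camk1g, a CaM kinase I gene, had 235.3, 227.3 and 202.7 in differentiated cells, against 104.8, 62.0 and 70.3 in proliferating cells, a change of 1.36 (standard error 0.27, adjusted p = 0.0043). All 3 proliferating arrays were above background, though 62.0 lay just over the limit of 60 on its array. The change was 1.51 at a pseudocount of 1 and 1.09 at 50. Camk2n2, an inhibitor of CaM kinase II, had 328.3, 333.6 and 309.4 in differentiated cells, against 163.2, 212.4 and 222.6 in proliferating cells (0.67, standard error 0.18, adjusted p = 0.024). The Camk2n2 call was lost without any 1 of the differentiated arrays (adjusted p = 0.053 to 0.086), without proliferating replicate 1 (0.084) and with eBayes without trend (0.098). Pnck and Pcp4 were at background on all arrays.

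Of 8 genes of calcium entry and release, 2 were higher and 1 lower, with a median of 0.10. Orai1, the pore of the store-operated calcium channel, had 1067.3, 907.5 and 1263.2 in differentiated cells, against 445.6, 525.2 and 485.5 in proliferating cells. It was up-regulated by 1.12 (standard error 0.13, adjusted p = 7.6e-05). Stim1, the calcium sensor of the reticulum that opens Orai1, had 192.7, 161.8 and 185.6 in differentiated cells, against 19.5, 96.4 and 27.2 in proliferating cells, where 1 of 3 arrays was above background. Its change of 1.84 (standard error 0.45, adjusted p = 0.015) missed the threshold without any 1 of the differentiated arrays or without proliferating replicate 3 (adjusted p = 0.051 to 0.078), and with eBayes without trend (0.075). Itpr3, an inositol trisphosphate receptor that releases stored calcium, was lower, with 667.0, 863.2 and 655.1 in differentiated cells, against 1263.2, 1443.2 and 1417.7 in proliferating cells (-0.91, standard error 0.12, adjusted p = 0.00021).

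The list with the largest median change, 0.91, held 13 muscle genes that are placed downstream of calcineurin or the CaM kinases. Of these, 7 were higher and 0 lower, where 8.67% of all genes were called higher and 9.05% lower. The other 6 did not pass, namely Ppargc1a (0.58, adjusted p = 0.62), Il4 (0.47, 0.71), Utrn (0.28, 0.11), Hdac5 (-0.24, 0.43), Hdac7 (-0.24, 0.37) and Hdac9 (-1.15, 0.27). Tnni1, the slow-fibre troponin I, averaged 14396.1 ± 476 in differentiated cells and 159 ± 35.8 in proliferating cells (SD, n = 3 each), a change of 6.39 (standard error 0.13, adjusted p = 1.3e-11). Mb, which encodes myoglobin, had 1989.3, 1822.3 and 2391.8 in differentiated cells, against 15.4, 55.6 and 100.3 in proliferating cells (5.04, standard error 0.35, adjusted p = 8.1e-07). Myh7, the slow myosin heavy chain, had 803.0, 804.9 and 718.0 in differentiated cells, against 11.3, 14.8 and 71.8 in proliferating cells (4.27, standard error 0.38, adjusted p = 6.2e-06). For Mb and Myh7 only 1 of 3 proliferating arrays was above background, so their size depends on the pseudocount. Mef2c, a MEF2 transcription factor, had 605.5, 593.4 and 559.3 in differentiated cells, against 123.3, 41.3 and 87.7 in proliferating cells (2.69, standard error 0.28, adjusted p = 2.4e-05). For Mef2c, 2 of 3 proliferating arrays were above background, and the change was 2.92 at a pseudocount of 1 and 2.29 at 50. The other 3 higher genes were Mef2a, Mef2d and Hdac4, with changes of 1.48, 1.10 and 0.91, and the call of Hdac4 was lost with eBayes without trend (adjusted p = 0.055). The markers of differentiated muscle moved in the same direction on the same arrays, 6 of 6. Among them Tnnt3, a fast-fibre troponin T, changed by 7.21 (adjusted p = 2.3e-08), with 1 of 3 proliferating arrays above background. The part of these markers in this list was not tested.

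**Figure D4:**
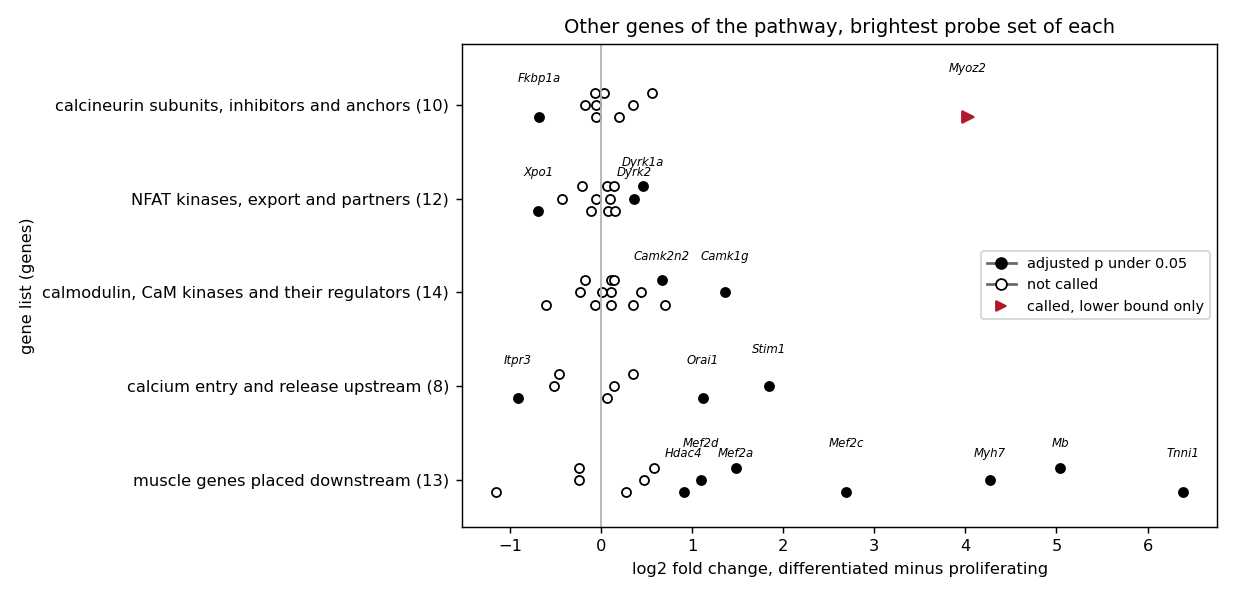
Log2 change, differentiated minus proliferating, of the brightest probe set of 57 further genes in 5 lists, with the number of genes in parentheses. Filled points have an adjusted p under 0.05 and carry the gene symbol, the triangle is a lower bound, and the height within a row only separates points. Most points of the upper 4 lists lie near 0, and Tnni1 lies farthest right at 6.39.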

How the data were processed

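RNA of 3 differentiated and 3 proliferating C2C12 samples was hybridised to Affymetrix mouse arrays. The authors deposited intensity values of the MAS 5.0 software, on a linear scale and scaled per array. The authors' later GCRMA step needs probe-level data and was not repeated. Signals plus 15 (near the 20.2 percentile of all values) were taken to log2 without further normalization, and limma 3.58.1 (R 4.3.3) was run on them with a variance trend in eBayes, 2-sided, with Benjamini-Hochberg adjustment over 45037 probe sets. This leaves out 64 control probe sets. All adjusted p-values are from limma unless a regularized test is named. Of the probe sets, 34945 have 1 gene symbol in the platform annotation, 932 several and 9160 none named here. A gene is represented by its probe set with the highest mean signal. The background limit is the brightest of 27 bacterial controls on each array, and a bound compares the mean log2 signal of a group above it with that limit. Members, lists, the limit and the named genes (all members and, per list, up to 4 called genes with the largest change, plus genes needed to state small counts) were chosen with earlier results of these data known. Alternatives covered pseudocount, scaling, dim probe sets, variance model, a regularized test, the replicate block, each array left out, a 1.5-fold threshold and averaged probe sets. Scripts ran in Python 3.11.15 and were tested on simulated data. With 3 arrays per group the number of arrays limits the precision.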

Additional observations from a re-analysis of the deposited data

How the results depend on the processing

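The variance model mattered most. With eBayes without trend, 1367 probe sets were called higher in differentiated cells and 1302 lower, against 2765 and 2894 with the trend. Among members it called 4 probe sets higher and 0 lower, against 8 and 1, and 2 genes higher by their brightest probe set, against 4. In the pathway lists it called 9 genes higher and 1 lower, against 14 and 3. With all probe sets of a gene averaged, 3 member genes were called higher and 0 lower.

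Without any 1 array, 5 to 7 member probe sets were higher and 0 to 1 lower. Over all probe sets the same fits called 1950 to 2396 higher and 2304 to 2542 lower, against 2765 and 2894 with all arrays. Arrays with the same replicate number did not deviate together (r of 0.0125, 0.000663 and 0.00937), so the numbers were not taken as pairs. With the replicate block, 2580 probe sets were called higher and 2707 lower, the member counts were again 8 and 1, and the pathway counts were 12 and 3, with Dyrk1a (adjusted p = 0.072) and Dyrk2 (0.056) lost. The block changed no other call of a member probe set or of a gene in the pathway lists.

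Direction turned only for values that did not pass. Nfatc3 at 1452497_a_at gave 0.06, 0.14 and 0.03 without differentiated replicate 1, proliferating replicate 1 and proliferating replicate 3, within a range of -0.25 to 0.14 over single arrays left out. Camk2g at 1423942_a_at gave -0.02 when arrays were scaled to the same 75th percentile, and -0.06 and -0.07 without differentiated replicate 1 and proliferating replicate 3 (range -0.07 to 0.12). Camk2g at 1423941_at gave 0.01 with quantile normalization, and 0.08 and 0.06 without differentiated replicate 3 and proliferating replicate 3 (range -0.16 to 0.08). Averaging all probe sets turned Nfatc2 to -0.12 and Nfatc2 minus Nfatc3 to -0.07. The cause was not tested for any of these. Changes of the dim probe sets are limited by background.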
